A study of Mus musculus with 41 samples.

Results

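Th2 cells with an induced deletion of Tdg were followed from the first to the second cycle of culture by amplicon bisulfite sequencing (BS-seq) of the Il4 locus, to see how far demethylation went on after the deletion. The samples were chosen by their labels and not by any measured value: 2 samples of the second cycle and 3 of the first, 5 of the 41 samples of the series. A pair of the first-cycle samples carried the name of a single library and was treated as 2 runs of it, so the cells were represented by 4 of the 34 libraries. The series as a whole measured modified cytosines in T cells of several genotypes and in wild type macrophages.

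Interleukin-4, the product of Il4, is the signature cytokine of T helper 2 (Th2) cells, and its locus loses DNA methylation as naïve CD4+ T cells become Th2 cells. TET enzymes oxidise 5-methylcytosine (5mC) stepwise to 5-hydroxymethylcytosine (5hmC), then to 5-formylcytosine (5fC), and last to 5-carboxylcytosine (5caC). TDG excises 5fC and 5caC, after which base excision repair inserts an unmodified cytosine, and oxidised bases can also be diluted away as cells divide.

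The TDG iKO cells (genotype label Tdg-iKO) came from mice with floxed Tdg alleles, Cre-ERT2 and the reporter Rosa26-H2B-EGFP/GPI-mCherry. The comparison groups were cells with floxed Tet1, Tet2 and Tet3 and Cre-ERT2 (TET iTKO, label TET-iTKO, with a Rosa26-EYFP reporter) and wild type cells titled as controls of either line (TDG WT and TET WT), each with 2 libraries per cycle, and 3 libraries of wild type naïve CD4+ T cells. Which alleles the wild type mice carried is not given by the labels. Deletion was not complete for any of the floxed genes by the methods. All mice were C57BL/6 and 8 to 16 weeks old, and both Cre-carrying and control mice received tamoxifen (2 mg intraperitoneally, in a treatment of 5 days). The naïve cells were sorted for the reporter, which marks Cre activity and not the loss of Tdg. In the first cycle, cells from spleen and lymph nodes were stimulated for 2 days through CD3 and CD28 (1 μg/ml of each antibody) with IL-4 at 1000 U/ml and an antibody to IFN-γ at 1 μg/ml. They were then expanded in IL-2 (20 U/ml), for 3 days by the labels and 4 days by the methods. For the second cycle, first-cycle cells rested for 1 day, were stimulated in the same way for 1 day and were expanded in IL-2 for 4 days. Sample labels do not name animals or cultures, so p-values measure only the spread between libraries, which may be technical.

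BS-seq reads 5mC and 5hmC as C, and unmodified cytosine, 5fC and 5caC as T. The level of a CpG was therefore its 5mC + 5hmC level, C reads as a percentage of C and T reads together, and it was an average over all cells and alleles, so that a change in every cell and a change in the share of demethylated cells cannot be told apart. There were 64 CpGs on the minus strand of chromosome 11 (mm9), numbered along Il4 transcription and amplified as 11 amplicons. CpGs 1 to 17 lie in the upstream enhancer CNS1, 18 to 21 in the promoter, 22 to 28 in exon 1 and 29 to 37 in intron 1 and exon 2. CpGs 38 to 42 lie in the 3′ region of the intron 2 enhancer HSII, and 48 to 64 in CNS2 downstream of the last exon. CpGs 43 to 47 lie in the exon 3 amplicon and are called exon 3 here, although CpG47 is in intron 3. The median number of reads per CpG was 537 in first-cycle library 1, 4336 and 7125 in the runs of first-cycle library 2, and 922 and 4439 in second-cycle libraries 1 and 2. The runs of library 2 differed by a median of 0.848 points over 45 CpGs, against 2.67 and 2.56 points between either run and library 1, and their levels were averaged. First-cycle library 2 held no reads of CNS2.

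Whether the cells labelled TDG iKO differed from wild type in the bases that TDG removes can be seen from pyridine borane sequencing (PB-seq), which measures 5fC + 5caC. For these cells the series holds a single PB-seq library per genotype, after the first cycle. The mean level over the 5 CpGs of the second CNS1 amplicon was 2.98% in TDG iKO and 0.477% in TDG WT cells. In the promoter it was 2.19% against 0.746%, in the 3′ region of HSII 0.426% against 0.343%, and in exon 3 0.353% against 0.272%. The TDG iKO library had the higher value at 37 of 47 CpGs, with the highest at CpG28 in exon 1 (5.74%), CpG7 in CNS1 (5.00%) and CpG29 in intron 1 (4.93%). With 1 library per genotype this has no replicate check here, although the paper describes its PB-seq data as representative of independent experiments. The series also holds PB-seq after deletion of Tdg by CD4-Cre, which was not analysed here. BS-seq counts such bases as unmodified, so the level after the first cycle leaves out modified bases that made up as much as 5.74% of all cytosines at a CpG. PB-seq of second-cycle cells was not analysed here.

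After deletion of Tdg, the Il4 locus went on losing 5mC + 5hmC in the second cycle, in CNS1, from exon 1 through exon 2 and in the 3′ part of HSII. At 37 of the 46 CpGs tested (80.4%) the level fell, and at 0 it rose. The falls ranged from 12.6 to 54.8 points, with a median change of -35.8 points. They included all 17 CpGs of CNS1, all 5 of HSII, all 9 of intron 1 and exon 2 and each of the 6 that could be tested in exon 1, whereas none of the 4 promoter CpGs and none of the 5 of exon 3 passed the main test (CpG21 of the promoter did with a replicate block). Of the 9 promoter and exon 3 CpGs, 0 had an unadjusted p under 0.05, and limma on log2 ratios or on percentages also called 0 of them. The test was a quasi-binomial regression with moderated dispersion (limma) and Benjamini-Hochberg adjustment, and the smallest adjusted p was 2.46e-07. At 39 of the 46 CpGs both second-cycle libraries lay below both first-cycle libraries. The 18 CpGs not tested were the 17 of CNS2 and CpG23 in exon 1, which had too few reads in first-cycle library 1.

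**Figure D1:**
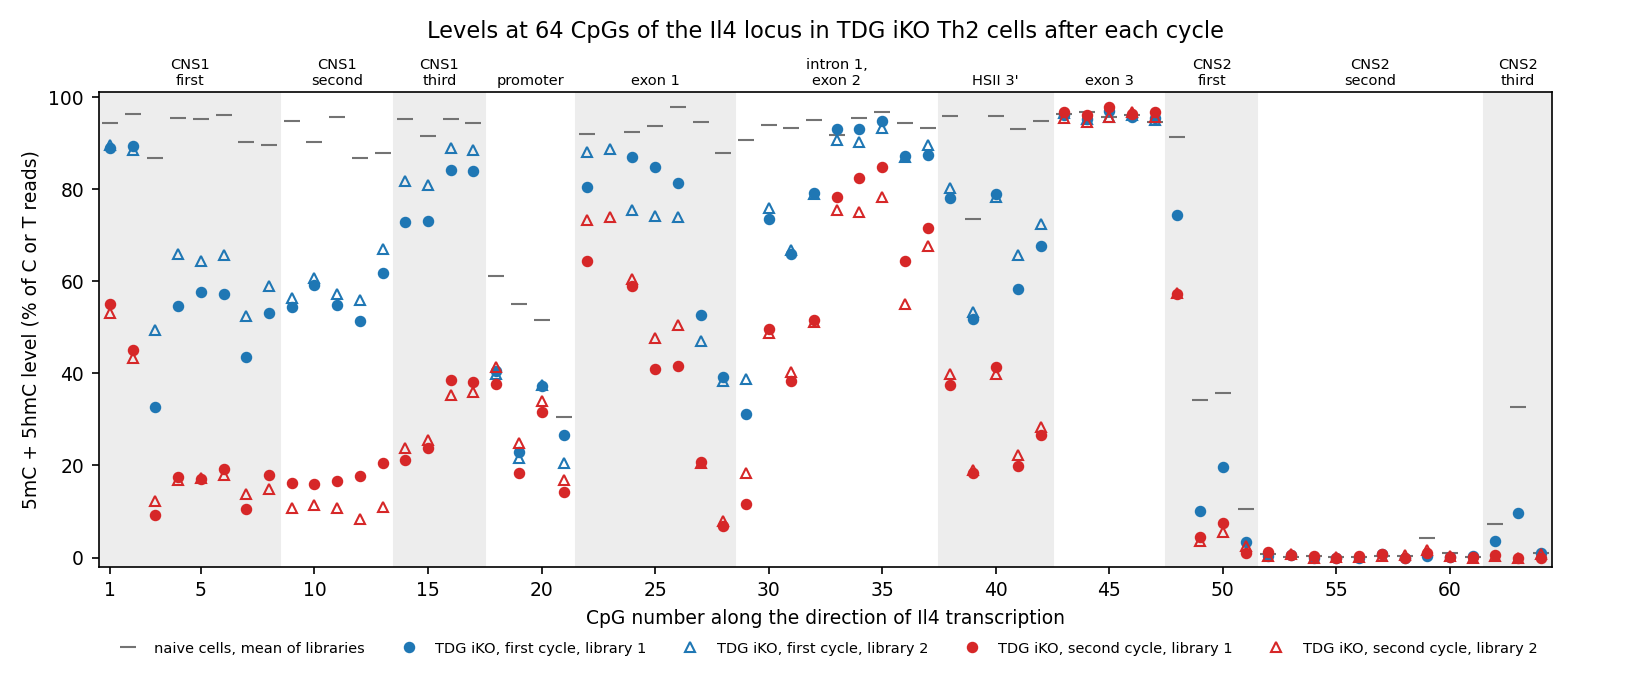
5mC + 5hmC level (%) of each CpG in TDG iKO Th2 cells, with each first-cycle and second-cycle library as a point and the naïve mean as a grey dash, in the order of Il4 transcription. The level fell at 37 of 46 CpGs tested, by 54.8 points at CpG14 in CNS1, while the 5 CpGs of exon 3 were between 94.5% and 97.9% in all 4 libraries.

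CNS1 is a conserved enhancer upstream of Il4, and its mean over 17 CpGs was 63.1% and 69.0% in the first-cycle libraries and 23.5% and 21.3% in the second-cycle libraries. The change was -43.6 ± 4.43 points (error combined from the SDs, n = 2 libraries per cycle), and 34.0% of the first-cycle level was left. Its 3 amplicons differed in how far they stood below naïve cells after the first cycle. Those naïve cells were wild type, as the series holds no naïve TDG iKO library, so such differences also cross genotypes. In the first amplicon (CpGs 1 to 8) the mean went from 59.7% and 66.8% to 24% and 23.7%, and in the second amplicon (CpGs 9 to 13) from 56.3% and 59.5% to 17.4% and 10.5%. In each of these, 43% of the difference between wild type naïve and second-cycle cells was already present after the first cycle. In the third amplicon (CpGs 14 to 17) the mean went from 78.5% and 85.0% to 30.4% and 30.2%, a change of -51.5 ± 4.65 points, the largest of the 8 amplicons with both cycles in every library. Only 19.3% of the difference between its naïve and second-cycle levels was present after the first cycle. By amplicon means, less of the third amplicon's difference from naïve cells was thus present after the first cycle than in the others. This was not tested. Single CpGs of the first amplicon did not all follow its mean. CpG1 and CpG2 had 12.8% and 14.1% of their difference from naïve cells after the first cycle, less than CpGs 14 to 17 (14.5% to 24.6%).

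The largest loss of a single CpG was at CpG14 in that amplicon (position 53440379), at 72.8% and 81.8% in the first-cycle libraries and 21.3% and 23.9% in the second-cycle libraries (4216 to 64543 reads). The fall of 54.8 ± 6.63 points (n = 2 per cycle) had an adjusted p of 2.46e-07 in the limma-moderated fit of all groups, and 0.000113 with only the compared groups in it. CpG17, with the smallest fall of these 4 CpGs, went from 83.9% and 88.4% to 38.1% and 36.0%. In the second amplicon CpG13 fell by 48.6 ± 7.62 points and CpG12 by 40.5 ± 7.28 points, and after the second cycle all 5 CpGs there had means between 13% and 15.7%. These 5 CpGs were the most even of CNS1 after the second cycle, with an SD over CpGs of 1.04 points against 16.1 in the first amplicon and 7.78 in CpGs 14 to 17. The third CNS1 amplicon is shown because its 4 CpGs had the largest falls of the 46 CpGs tested (mm9, minus strand, chr11:53440236-53440419, intergenic, upstream of exon 1, CpGs 14 to 17 in capitals).
CNS1, CpGs 14 to 17: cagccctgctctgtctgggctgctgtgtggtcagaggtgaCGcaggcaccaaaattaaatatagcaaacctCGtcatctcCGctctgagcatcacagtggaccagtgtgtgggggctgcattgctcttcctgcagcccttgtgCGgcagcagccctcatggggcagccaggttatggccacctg

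Within the first CNS1 amplicon the CpGs fell into separate ranges, a grouping made after the values were seen. CpG1 and CpG2 at its 5′ end had a mean of 89.2% and 89% in the first-cycle libraries and 50.0% and 48.3% in the second-cycle libraries. CpGs 3 to 8, which begin 86 bases further on, had 49.8% and 59.5% after the first cycle and 15.3% and 15.5% after the second. The 5′ pair thus had, after the second cycle, about the level that the other 6 had after the first. CpG2 had the largest fall of the amplicon, 44.8 ± 1.29 points to 44.2% ± 1.11 (SD, n = 2; adjusted p 7.06e-07, limma-moderated fit), and CpG3 the smallest, 30.3 ± 12 points to 10.7% ± 2.14 (SD, n = 2; adjusted p 0.000129, limma-moderated fit). CpG3 also had the widest spread between first-cycle libraries, 32.7% (401 reads) against 49.4% (9713 reads). The bases around these neighbours of unlike level are given with the measured CpG in capitals (mm9, minus strand, chr11:53440743-53440764 and chr11:53440657-53440678).
CpG2: tgtctggtccCGcactttaggc
CpG3: ctaaaagtcaCGaggcctcatt

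The promoter was lower after the first cycle than in wild type naïve cells, and had no called loss in the second cycle by the main test. Its mean over 4 CpGs was 31.8% and 29.9% in the first-cycle libraries and 25.5% and 29.2% in the second-cycle libraries, a change of -3.48 ± 3.01 points (-5.38 or -1.59 without either second-cycle library), and 88.7% of the first-cycle level was left. Of the difference between wild type naïve cells (49.6% ± 2.20, SD, n = 3) and second-cycle cells, 84.3% was present after the first cycle. CpG18 (position 53432516) had 40.4% and 39.9% after the first cycle and 37.7% and 41.4% after the second, so the libraries of the cycles overlapped. CpG21, the nearest of the 4 to exon 1, had 26.7% and 20.5% and then 14.2% and 16.8%, a change of -8.08 ± 4.76 points that did not pass the test (adjusted p 0.0951, limma-moderated fit, n = 2 per cycle). Its adjusted p stayed between 0.0663 and 0.411 when 1 library was left out. With only the compared groups in the fit it was 0.0585, and 0.0186 with a block for replicate number added, so that CpG21 was called there. The promoter sequence is shown as the amplicon of low level with 0 of 4 CpGs called by the main test (mm9, minus strand, chr11:53432389-53432583, upstream of exon 1, CpGs 18 to 21 in capitals).
Promoter: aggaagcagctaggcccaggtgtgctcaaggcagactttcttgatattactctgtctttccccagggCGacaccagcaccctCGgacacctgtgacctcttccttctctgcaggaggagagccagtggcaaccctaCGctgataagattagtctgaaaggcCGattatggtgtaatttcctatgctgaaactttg

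Downstream of the promoter, in exon 1, each of the 6 CpGs tested fell. Over the 6 CpGs the mean went from 70.9% and 66.2% to 38.9% and 43.4%, a change of -27.4 ± 4.63 points. The levels reached in this amplicon spanned a wide range, from that of CpG22, the first of its CpGs, to that of CpG28, the last before intron 1. CpG22 had 68.9% ± 6.30 (SD, n = 2) after the second cycle, CpG25 fell by 35.1 ± 8.95 points to 44.4% ± 4.76 (n = 2), and CpG28 had 7.30% ± 0.774 (SD, n = 2). CpG28 went from 39.2% and 38.3% to 6.75% and 7.85% (166, 1126, 237 and 1555 reads) and had 18.9% of its first-cycle level left, the smallest share of the 46 CpGs. Of the 8 amplicons tested, this one had the lowest median number of reads in each library, 166 in first-cycle library 1. The fall of CpG22 (15.3 ± 8.26 points, adjusted p 0.00689) was not called without first-cycle replicate 2 (adjusted p 0.159) or without second-cycle replicate 1 (0.0903), nor was that of CpG24 without first-cycle replicate 1 (0.0603), all by the limma-moderated fit.

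In intron 1 and exon 2 all 9 CpGs fell, from a mean of 78.3% and 79.0% to 59.2% and 56.7%, with 73.6% of the first-cycle level left. The change of -20.7 ± 1.83 points was the smallest among the amplicons with calls. At the start of intron 1, CpG29 went from 31.1% and 38.8% to 11.7% and 18.4%. CpG32 had the largest fall of the amplicon, 27.6 ± 0.304 points, from 79.1% and 79.0% to 51.7% and 51.2%. CpGs 33 to 35, around the border of intron 1 and exon 2, stood out as the most methylated of the called CpGs, a grouping made after the values were seen. Their mean was 93.6% and 91.4% after the first cycle and 81.9% and 76.2% after the second. CpG35 (position 53431709) had the smallest fall of all 37 called CpGs, 12.6 ± 4.72 points, from 94.8% and 93.3% to 84.8% and 78.2% (adjusted p 0.00265, limma-moderated fit, n = 2 per cycle). The fall of CpG34 was not called without second-cycle replicate 2 (adjusted p 0.0718).

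HSII is an enhancer in intron 2, and all 5 CpGs of its 3′ region fell. The mean went from 67.0% and 70.0% to 28.8% and 29.9%, a change of -39.1 ± 2.28 points, with 42.8% of the first-cycle level left. Of the difference between wild type naïve and second-cycle cells, 36.2% was present after the first cycle. CpG42 fell by 42.4 ± 3.59 points, to 26.7% and 28.4%, and CpG39, the lowest of the 5 after either cycle, by 33.9 ± 1.11 points, to 18.4% and 18.9%. The loss here was thus nearly as large as over the whole of CNS1. Its sequence is shown as the amplicon with the largest fall outside CNS1 (mm9, minus strand, chr11:53430150-53430347, intron 2, CpGs 38 to 42 in capitals).
HSII, 3′ region: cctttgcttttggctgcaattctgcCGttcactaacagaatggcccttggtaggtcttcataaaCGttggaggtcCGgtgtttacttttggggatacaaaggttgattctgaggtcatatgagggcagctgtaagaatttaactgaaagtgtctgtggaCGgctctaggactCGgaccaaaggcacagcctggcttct

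Exon 3, in the coding part of the gene, was the fully methylated end of the range. Its mean was 95.9% and 95.7% after the first cycle and 96.7% and 95.6% after the second, a difference of 0.401 ± 0.777 points. Single CpGs differed by between -0.219 (CpG43) and 0.894 points (CpG47), and 0 of the 5 was called. CpG43 had 96.1% and 96.6% and then 96.8% and 95.5%, at 7609 or more reads per library. In second-cycle library 2 the read counts of all 5 CpGs stood at the limit where the deposited counts stop. The sequence is given as the amplicon whose levels stayed near those of naïve cells (mm9, minus strand, chr11:53427375-53427537, exon 3 with the start of intron 3, CpGs 43 to 47 in capitals).
Exon 3: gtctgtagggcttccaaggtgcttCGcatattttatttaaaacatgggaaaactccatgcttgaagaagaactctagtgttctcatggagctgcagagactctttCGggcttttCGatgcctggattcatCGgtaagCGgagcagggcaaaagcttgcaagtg

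For the amplicon means, an exact permutation test (two-sided) of 2 libraries against 2 can give no p below 0.333. It gave 0.333 for each of the 8 amplicons and for CNS1 except for exon 3, where it gave 1. The amplicon changes are thus descriptions, and their size beside the spread between libraries carries the comparison. In HSII, CNS1 and the amplicons from exon 1 through exon 2 the change was 5.92 to 17.2 times its error, and in the promoter 1.16 times.

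**Figure D2:**
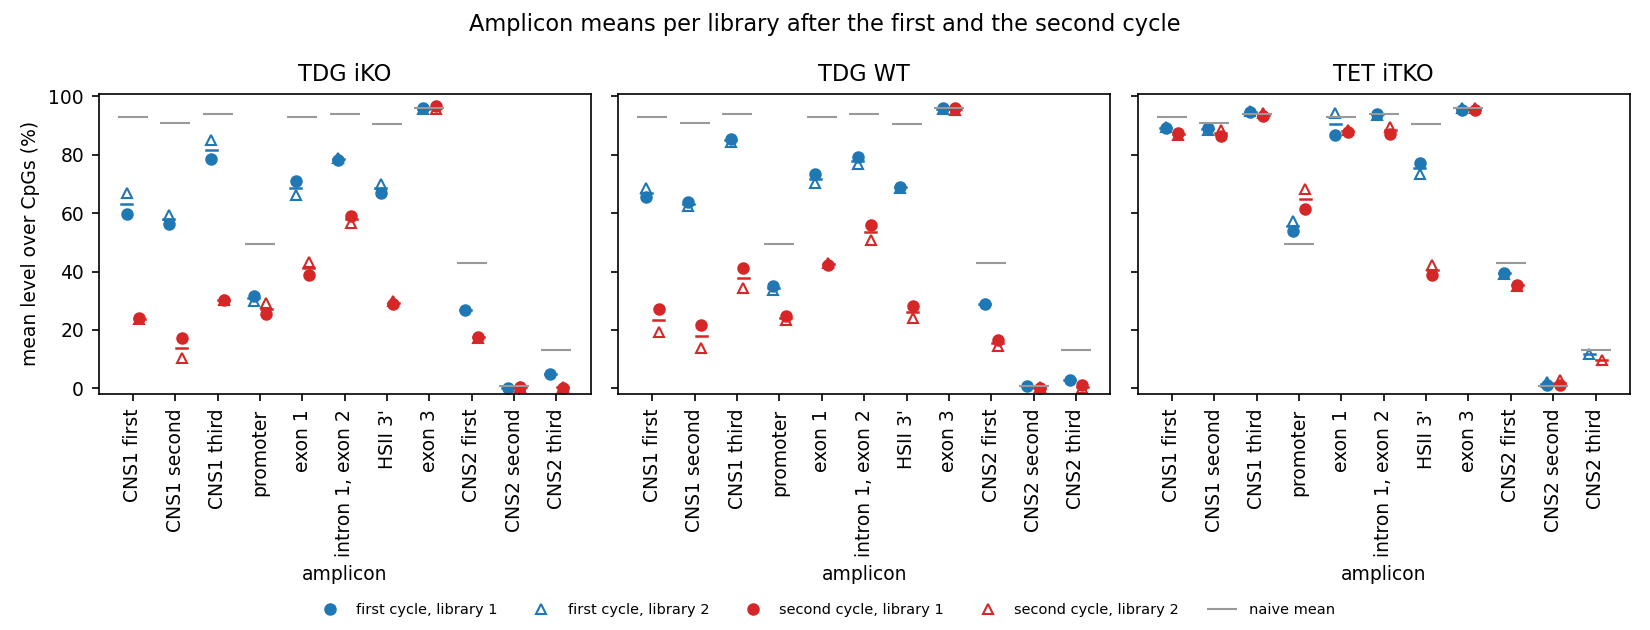
Mean 5mC + 5hmC level (%) of each amplicon per library after the first and the second cycle in TDG iKO, TDG WT and TET iTKO cells, with the naïve mean as a grey dash and a short coloured dash for the mean of the libraries. In TDG iKO cells the third CNS1 amplicon changed by -51.5 points and the promoter by -3.48 points, whereas in TET iTKO cells CNS1 was at 88.5% and 89.1% and the 3′ region of HSII was at 38.8% and 42.2% after the second cycle.

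CNS2, an enhancer 3′ of the gene, had first-cycle values from library 1 alone, so no amplicon of it was tested. The mean of CpGs 48 to 51 was 26.8% in that library and 17.5% and 17.3% in the second-cycle libraries. CpG48, the most methylated CpG there, had 74.3% (95% Wilson interval 72.9% to 75.6%) and then 57.3% and 57.5%. CpGs 52 to 61 averaged 0.245% after the first cycle and 0.429% and 0.376% after the second, so little was left to lose. CpG63 had 9.73% of 113 reads (interval 5.52% to 16.6%) after the first cycle and 0 C reads of 167 and of 743 after the second, which allows up to 1.80% and 0.404%. Such intervals and limits take every read for a separate molecule, which amplified reads are not, and leave out all error but that of counting. When first-cycle library 2 was left out so that CNS2 could enter the limma-moderated fit, 39 of 63 CpGs were called, 3 of them in CNS2: CpG48 (adjusted p 0.0174), CpG50 (0.00751) and CpG63 (0.00351). That fit takes the lone first-cycle library to vary like the other groups.

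CpGs of the locus ended the second cycle at very different levels. Of the 46 CpGs, 15 ended under 20%, all of them in CNS1, the promoter, exon 1, intron 1 or HSII, while 9 of the called CpGs were still above 50%. At 23 of the 37 called CpGs less than 50% of the first-cycle level was left. The change had little linear or rank relation to the level at the start. Across the 46 CpGs, Pearson's r between the change and the first-cycle level was 0.0774 and Spearman's rho 0.217. Such coefficients miss a relation that bends. Promoter CpGs (first-cycle means 22.2% to 40.2%) changed by -0.584 to -8.08 points and exon 3 CpGs (95.2% to 96.4%) by -0.219 to 0.894. CpGs of CNS1 (41.0% to 89.2%) changed by -30.3 to -54.8 points. Between the change and the first-cycle 5fC + 5caC level of TDG iKO cells, r was -0.221 and rho -0.345. These are descriptions across CpGs, which share libraries and amplicons and are not independent.

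TDG WT cells give the rate of loss to set this beside. In these the level fell at 40 of the 46 CpGs (87.0%) and rose at 0. CNS1 changed by -45.0 ± 5.37 points, exon 1 by -29.2 ± 2.26, intron 1 and exon 2 by -24.5 ± 3.96 and HSII by -42.7 ± 2.77 (n = 2 libraries per cycle). The change in TDG iKO minus that in TDG WT cells was 1.39 ± 6.96 points in CNS1, 1.78 ± 5.15 in exon 1, 3.76 ± 4.37 in intron 1 and exon 2 and 3.53 ± 3.58 in HSII, each smaller than its error. This error takes the libraries as unpaired, and by it TDG iKO and TDG WT progress differed by less than the spread between libraries. It would be too wide if same-numbered libraries of the genotypes belong together, which the labels do not say. Paired by number, the fall was smaller in TDG iKO cells in each pair in CNS1, intron 1 and exon 2, and HSII. In exon 1 it was larger in the pair of libraries 1 and smaller in that of libraries 2. In intron 1 and exon 2 TDG WT cells went from 79.1% and 76.7% to 55.9% and 50.9%. In HSII they went from 69.0% and 68.8% to 28.2% and 24.3%. With a block for replicate number, 0 CpGs were called in this comparison. The changes at single CpGs ran in parallel, with a Pearson's r of 0.965 and a Spearman's rho of 0.944 across 46 CpGs of the same amplicons, as a description.

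The promoter was the exception in size. It had 35.2% and 33.8% after the first cycle and 24.7% and 23.4% after the second in TDG WT cells, a change of -10.4 ± 1.32 points, and the change in TDG iKO cells was smaller by 6.93 ± 3.29 points. In TDG WT cells CpGs 18, 20 and 21 were called lower, with changes of -11.9, -11.6 and -11.4 points (adjusted p 0.0430, 0.0443 and 0.0148, limma-moderated fit), against -0.584, -4.64 and -8.08 points in TDG iKO cells. At CpG18 the second-cycle levels were 34.9% and 33.2% in TDG WT and 37.7% and 41.4% in TDG iKO cells. These wild type calls did not hold without single libraries, although the changes stayed between -10.1 and -13.5 points. CpGs 18 and 20 were not called without any 1 of the 4 TDG WT libraries (adjusted p 0.0626 to 0.155 and 0.0931 to 0.119), and CpG21 was not called without first-cycle replicate 1 (0.0700) or second-cycle replicate 2 (0.0550). A call in TDG WT and none in TDG iKO cells does not show a difference between them, and the test of the difference itself was not passed at CpG18 (p 0.144, adjusted p 0.995, limma-moderated fit).

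When the 2 changes were compared CpG by CpG on the logit scale, the cycle change differed between TDG iKO and TDG WT cells at 0 of 46 CpGs (0%). In this limma-moderated quasi-binomial fit 0 CpGs had an unadjusted p under 0.05, the smallest adjusted p was 0.995, and limma on log2 ratios and limma on percentages also called 0. In points, and not on the logit scale of the test, the change in TDG iKO minus that in TDG WT cells was above 0 at 36 CpGs and below 0 at 10. The median was 2.31 points. Some CpGs had the opposite sign on the logit scale, such as CpG9 (2.17 points, -0.0341 on the logit scale). The smallest p was at CpG27 in exon 1 (p 0.0929, limma-moderated fit), where TDG iKO cells went from 52.7% and 46.9% to 20.7% and 20.6% and TDG WT cells from 53.8% and 54.9% to 11.7% and 13.5%. That CpG also had the largest difference between the changes, 12.5 points. A p above the threshold does not show that the changes were equal.

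**Figure D3:**
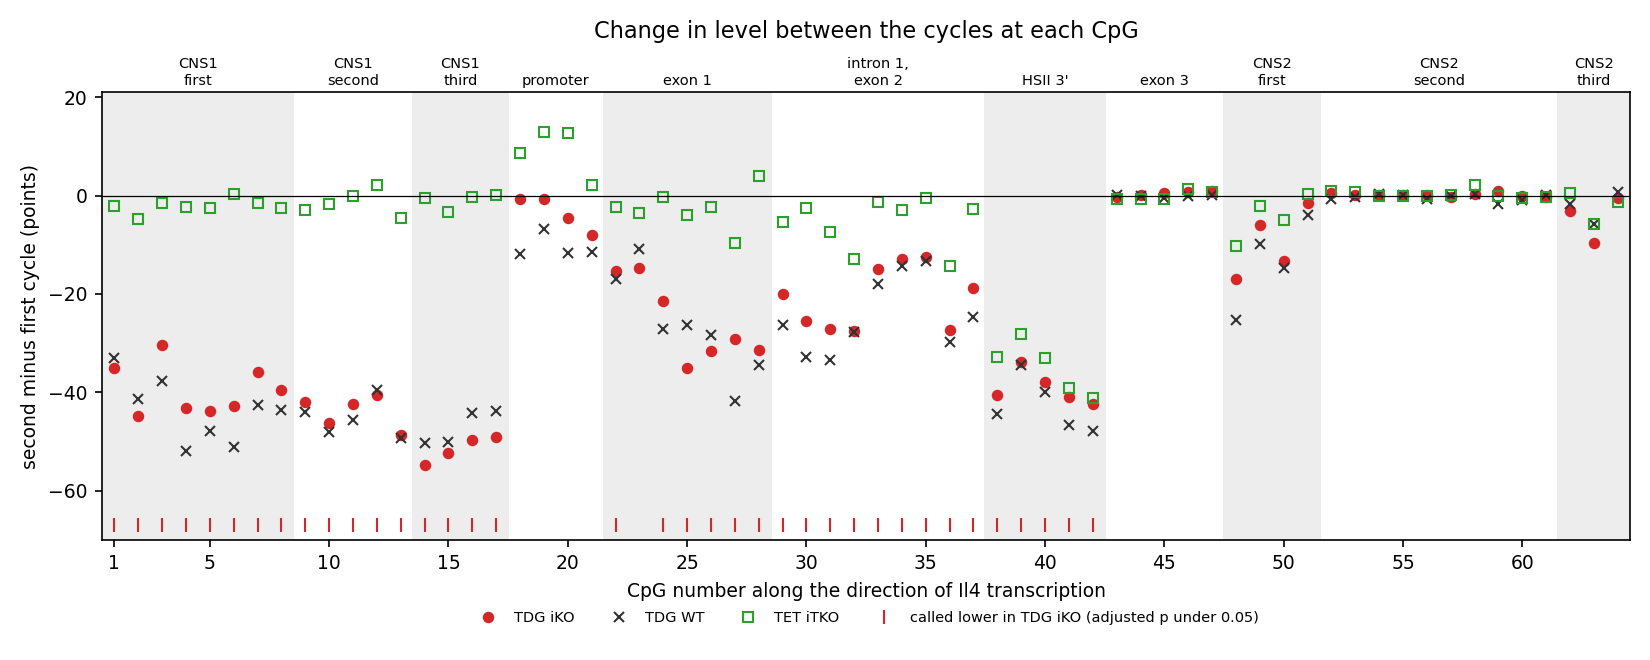
Change of the 5mC + 5hmC level (points, second minus first cycle) at each CpG in TDG iKO, TDG WT and TET iTKO cells, in the order of Il4 transcription. TDG iKO and TDG WT cells lie close together, with a median size of the difference of 3.34 points, whereas TET iTKO cells stay near 0 in CNS1 and lie near the other groups in the 3′ region of HSII, where they changed by -34.8 points on average.

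TET proteins make the bases that TDG removes, and TET iTKO cells show where progress in the second cycle differed between the knockouts. These come from different lines, so the wild types were compared too. In TET iTKO cells CNS1 had 90.4% and 90.5% after the first cycle and 88.5% and 89.1% after the second, a change of -1.67 ± 0.387 points, so that the changes differed by -41.9 ± 4.45 points (TDG iKO minus TET iTKO). The cycle change was called larger in TDG iKO cells at 17 of 46 CpGs (37%) and smaller at 0 (quasi-binomial fit, limma-moderated, smallest adjusted p 0.00372). Before adjustment, 19 CpGs passed the same threshold. The 17 were 16 of the 17 CpGs of CNS1, all but CpG2, and CpG28 in exon 1. The largest difference was at CpG14, where TET iTKO cells had 93.6% and 95.4% and then 92.7% and 95.5%, in replicate 2 at the limit of the counts. The fall there was larger in TDG iKO cells, with a difference between the changes of -54.3 points or -2.41 on the logit scale (adjusted p 0.00372, limma-moderated fit). At CpG28 the call rested on TET iTKO first-cycle replicate 1, which had 63.3% there against 91.2% in replicate 2, and without it the adjusted p was 0.214.

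Other regions gave smaller differences or depended on the scale. In the 3′ region of HSII the mean of TET iTKO cells went from 77.2% and 73.5% to 38.8% and 42.2%, and the change in TDG iKO cells differed from that by -4.29 ± 4.21 points. Taken alone, TET iTKO cells had 7 of 60 CpGs called lower in the second cycle (11.7%, limma-moderated fit), the 5 of HSII and 2 of intron 1 and exon 2, but 6 when only the compared groups entered the fit and 0 when a block for replicate number was added to that (smallest adjusted p 0.315). Between TDG iKO and TET iTKO cells, none of the 5 HSII CpGs and none of the 5 of exon 3 was called in the limma-moderated fit or by limma on log2 ratios or percentages. On the logit scale 0 of 9 CpGs in intron 1 and exon 2 and 0 of 4 in the promoter were called, although the changes differed by -15.2 ± 2.58 and -12.7 ± 6.35 points. With limma on percentages 31 of 46 CpGs were called: all 17 of CNS1, 1 promoter CpG, 8 of 9 in intron 1 and exon 2 and 5 of 6 in exon 1. In the promoter and from exon 1 through exon 2 the number of calls thus depended on the scale, which it hardly did in CNS1 and did not in HSII and exon 3. The promoter mean was 54.0% and 57.5% after the first cycle and 61.4% and 68.4% after the second in TET iTKO cells, a change of 9.17 ± 5.59 points.

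The wild types of the lines differed in the size of their changes, although not by the main test, which limits what the knockouts can show beside each other. In TET WT cells CNS1 went from 56.1% and 56.1% to 34.7% and 26.7%, a change of -25.4 ± 5.66 points. TDG WT cells went from 69.7% and 70.4% to 28.9% and 21.3%, a change of -45.0 ± 5.37. TET WT cells were thus lower after the first cycle, and the second-cycle libraries of the wild types overlapped. The change in TDG WT minus that in TET WT cells was -19.6 ± 7.80 points in CNS1 and -12.0 ± 4.93 in the 3′ region of HSII (n = 2 libraries per cycle). On the logit scale 0 of 46 CpGs (0%) were called between the wild types, but 17 had p below 0.05 before adjustment and the smallest adjusted p was 0.0631 (limma-moderated fit). That count of 0 was not stable, since it became 14 without TDG WT second-cycle replicate 1 and 13 without TET WT second-cycle replicate 2. With a block for replicate number as labelled it was 0 (smallest adjusted p 0.147, limma-moderated fit). With a block in which the TDG WT numbers were crossed, chosen after seeing the data, it was 20. Limma on percentages called 16 of 46, with the larger fall in TDG WT cells at each, 13 of them in CNS1.

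When each knockout was set against its own wild type, the difference between the knockouts was smaller and was not called. The excess of the TDG iKO change over that of TDG WT, less the same for TET iTKO and TET WT, was -22.3 ± 8.98 points in CNS1, against -41.9 points between the knockouts alone. It was -30.1 ± 6.95 points in the third CNS1 amplicon and 7.69 ± 6.48 in the 3′ region of HSII. In the limma-moderated fit 0 of 46 CpGs (0%) passed, with a smallest adjusted p of 0.518. At CpG14 TET WT cells had 65.2% and 65.6% and then 39.3% and 37.3%, and the difference was -31.0 points or -1.25 on the logit scale (adjusted p 0.518). Limma on percentages called 6 CpGs, CpG1, CpG2 and the 4 of the third CNS1 amplicon. Within the TET line, the change in TET iTKO minus that in TET WT cells was 23.7 ± 5.67 points in CNS1 and 25.8 ± 1.36 over CpGs 14 to 17, against 1.39 ± 6.96 points in CNS1 for TDG iKO minus TDG WT. By arithmetic on the means, the -41.9 points between the knockouts combine these values with the -19.6 points between the wild types. The difference within the TET line was not tested CpG by CpG. That between the wild types was not called by the main test, and the cause of either was not tested.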

How the data were processed

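The authors mapped paired-end amplicon reads to mm9 with BSMAP (-w 2 -q 30, with -v 5 in BS-seq but -v 0 in PB-seq). For each cytosine they deposited how many reads had C and how many had C or T, numbers that stop at 65535. The deposited fraction of C, computed by the authors from these counts, was not used. Levels were the percentage of C for BS-seq and of T, with C reads multiplied by 0.5, for PB-seq. Runs of 1 library were averaged. A CpG needed 100 reads in every library compared.

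CpGs were tested by quasi-binomial regression on the 22 naïve and Th2 libraries (10 groups), with 1 between-library variance for all CpGs, dispersions moderated with limma 3.58.1 and never below 1, a two-sided F-test and Benjamini-Hochberg adjustment, calling adjusted p under 0.05. Amplicon means weighted CpGs equally. Alternatives were other read minimums, limma, other sets of groups, a replicate block, a minimum difference, other averages, separate runs, a conversion correction and each library left out. Named CpGs were those with the largest and smallest change per amplicon and the extremes of the differences between changes. Other CpGs were chosen after their values were seen. Comparisons with TET WT cells were added after seeing the data, and members and lists were chosen with earlier results of these data known. Replicate numbers come from labels that do not tie libraries to animals. R 4.3.3 and Python 3.11.15 with numpy 2.4.6, pandas 2.3.3, scipy 1.17.1 and matplotlib 3.10.9 were used.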

Additional observations from a re-analysis of the deposited data

Results flagged for a closer look

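The change from the first to the second cycle differed between TDG iKO and TET iTKO cells at 17 of 46 CpGs by the test of the difference itself, with the larger fall in TDG iKO cells at each. The largest difference on the logit scale was -2.41, at CpG14 in CNS1, where the TDG iKO libraries went from 72.8% and 81.8% to 21.3% and 23.9% and the TET iTKO libraries from 93.6% and 95.4% to 92.7% and 95.5%. Both second-cycle TDG iKO libraries were thus below both of the first cycle, and the TET iTKO libraries of the cycles overlapped. The knockouts come from different mouse lines, and when each was set against the wild type of its own line, 0 of the 46 CpGs were called (smallest adjusted p 0.518, limma-moderated fit). Limma on percentages called 6 there, CpG14 among them, and the third CNS1 amplicon differed by -30.1 ± 6.95 points. Within the TET line, the change in TET iTKO minus that in TET WT cells was 23.7 ± 5.67 points in CNS1, and between the wild types (TDG WT minus TET WT) it was -19.6 ± 7.80. The difference between the knockouts in CNS1 thus combines these differences of means, whose causes were not tested. That within the TET line was not tested CpG by CpG. The one between the wild types was not called by the main test.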

How the results depend on the processing

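The calls in TDG iKO cells were 36 to 38 under limma, only the compared groups in the fit, a minimum of 20 reads, a minimum difference of 10 points and separate runs, and 36 to 39 with 1 library left out. A minimum of 500 reads left 27 CpGs, of which 18 were called in TDG iKO and 21 in TDG WT cells and 4 in the comparison with TET iTKO cells. In that comparison limma on percentages called 31, the 17 among them, and 12 to 17 were called with 1 library left out. Added after seeing the data, the comparison of the wild types went from 0 calls to 3 at 500 reads, 16 under limma on percentages, 10 with separate runs, 20 with the TDG WT numbers crossed, 14 without TDG WT second-cycle replicate 1 and 13 without TET WT second-cycle replicate 2. That of the knockouts each against its wild type had 6 under limma on percentages and 0 otherwise. The comparison with TDG WT cells gave 0 calls under every alternative, and the calls in TDG WT cells were 36 to 42 with 1 library left out.

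A block for replicate number, with only the compared groups in the fit, gave 38 calls in TDG iKO cells (the 37 and CpG21; 37 without the block), 40 in TDG WT cells (40), 17 (19) in the comparison with TET iTKO cells and 0 in that with TDG WT cells. In the comparison of the wild types the block as labelled gave 0 calls (0 without the block). Same-numbered libraries of the cycles correlated at -0.0531 in TDG iKO, 0.136 in TET iTKO and -0.133 in TDG WT cells. With the TDG WT numbers crossed, an alternative chosen after seeing the data, the counts were 40 in TDG WT cells and 0 in the comparison with them. For TET iTKO cells alone 7 of 60 were called in the main fit, 6 with only the compared groups, 0 with the block added and 5 or 6 with 1 library left out. The block leaves the amplicon differences unchanged by construction.

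Of the alternative values of the amplicon means, 95 kept their direction and 1 reversed. Exon 3 ranged from -0.142 to 0.945 points with 1 library left out, and the sign changed without second-cycle replicate 1. Other amplicon means with 1 library left out ranged from -46.5 to -40.6 points in CNS1 (-43.0 to -35.8, -47.4 to -40.5 and -54.8 to -48.2 in its amplicons), -5.38 to -1.59 in the promoter, -29.8 to -25.0 in exon 1, -22.0 to -19.5 in intron 1 and exon 2 and -40.7 to -37.6 in HSII. CpG18 became 1.28 points without second-cycle replicate 1 and -2.44 without replicate 2. CpG43 became 0.0559 points without first-cycle replicate 2, and 0.417 and -0.855 points without second-cycle replicates 2 and 1. The cause was not tested.

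First-cycle library 2 had more C at cytosines outside CpGs (0.419% and 0.371% in its runs) than the other TDG iKO libraries (0.212% to 0.224%), and correcting for this share changed CNS1 to -43.6 points and the promoter to -3.42 points. Of the amplicons tested, depth limits exon 1 most, with a median of 166 reads in first-cycle library 1, and the comparison in CNS2 rests on 1 first-cycle library.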
